A study of Homo sapiens with 8 samples.

Results

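The genes described here encode the insulin receptor (INSR), the type 1 IGF receptor (IGF1R), the growth factor IGF1 and the IGF-binding proteins IGFBP1 to IGFBP7. They are 10 genes listed by symbol, out of 58233 Ensembl genes in the deposited table. All 10 were matched to a row through GENCODE, and the list was chosen with earlier results of these data known. The cells were HUES8, a line of human embryonic stem cells for which the labels name no engineered allele, and had been taken to stage 5 of a stepwise differentiation protocol. Their polyadenylated RNA was sequenced. Buds, the small fraction shaken loose from spheroids and recovered by filtering, came from flasks 264, 270 and 274 (n = 3), and bulks, the large fraction, came from flasks 252, 261, 264, 270 and 274 (n = 5). The question was how the RNA of buds differed from that of bulks. All flasks hold 1 cell line, so the p-values cover differences among its flasks and no others. Each sample is a mixture of cells, and fewer cells of a type and less RNA per cell cannot be told apart.

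Insulin and the IGFs act through related receptor tyrosine kinases. INSR binds insulin and IGF2, IGF1R binds IGF1 and IGF2, and a separate receptor, IGF2R, takes up IGF2 for breakdown in lysosomes. IGFBP1 to IGFBP6 bind IGFs with high affinity outside the cell and hold them from the receptors, and they release them when proteases such as the pappalysins cut the binding protein. IGFBP7 binds IGFs weakly. In the pancreas, insulin and IGF signalling is known for its part in the growth of the epithelium and in the mass and function of beta cells.

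Library totals ran from 6083973 to 12508039 expected counts. By edgeR's quasi-likelihood F test, with p-values adjusted after Benjamini and Hochberg, 3894 (23.4%) of 16641 genes were higher and 3967 (23.8%) lower in buds, so 47.2% of all genes tested passed the threshold of 0.05. Of 10 markers of endocrine cells 7 were higher in buds and none lower, and of 10 markers of pancreatic epithelium and progenitors 9 were lower and none higher. All 12 neuron markers were higher and all 8 proliferation markers lower. The bulk of flask 264 stood apart from the other bulks in several of the genes below, and those values are given where they occur.

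IGF1R and IGFBP2, the better expressed of the genes that fell, were lower in buds in all 3 flasks that gave both samples, while INSR and IGFBP5 did not pass the test. Of the 10 genes, 9 passed the filter on low counts, and IGF1 did not. Of these 9, IGF1R, IGFBP2, IGFBP4 and IGFBP6 were lower in buds, beside 23.8% of all genes tested. None of the 9 was higher by edgeR, beside 23.4% of all genes tested. At an unadjusted p below 0.05 edgeR put 1 higher, IGFBP3. At the adjusted threshold DESeq2 put 1 higher, again IGFBP3, and limma-voom put none higher. The median log2 fold change of the 9 was -0.49, against -0.02 over all genes tested. The CPM ranges of buds and bulks were separate for 3 of the 9, all lower in buds, beside 23.7% of all genes tested that were separate and lower and 23.5% that were separate and higher.

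**Figure D1:**
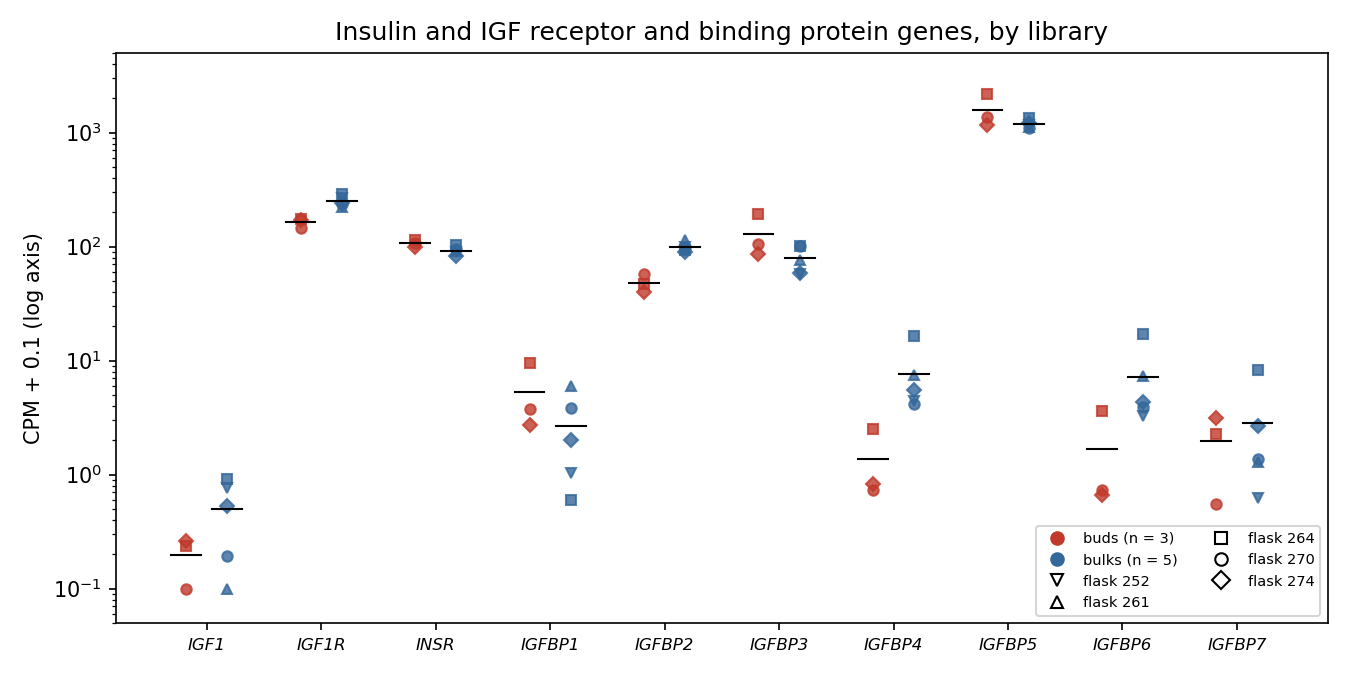
Level of each of the 10 genes in every library, as CPM, counts scaled to a common library size, plus 0.1 on a log axis, with buds (red, n = 3) left of bulks (blue, n = 5), a marker shape for each flask and a bar at the group mean. IGFBP5 stood at 1107 CPM or more in every library, and the square of the bulk of flask 264 is the highest bulk point for IGFBP4, IGFBP6 and IGFBP7.

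The promoters of IGF1R and IGFBP2, which fell, are shown with those of INSR and IGFBP5, their counterparts that did not pass, so that the start regions of the genes the results turn on can be compared. Each runs from 250 bases before to 50 bases after the annotated start, 5′ to 3′ on the strand of the gene, from RefSeq on GRCh38.p14, and capitals mark GGGCGG or its reverse complement CCGCCC, the GC box bound by Sp1-type factors. The windows are chr15:98648289-98648588 on the plus strand for IGF1R, chr2:216633170-216633469 on the plus strand for IGFBP2, chr19:7294365-7294664 on the minus strand for INSR and chr2:216695500-216695799 on the minus strand for IGFBP5.
IGF1R: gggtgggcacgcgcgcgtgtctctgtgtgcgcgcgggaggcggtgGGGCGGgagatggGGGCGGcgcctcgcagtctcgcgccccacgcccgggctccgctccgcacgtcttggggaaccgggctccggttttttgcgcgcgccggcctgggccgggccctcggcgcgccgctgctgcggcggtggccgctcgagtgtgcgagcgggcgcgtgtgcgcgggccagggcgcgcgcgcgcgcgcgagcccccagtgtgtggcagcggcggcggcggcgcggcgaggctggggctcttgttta
IGFBP2: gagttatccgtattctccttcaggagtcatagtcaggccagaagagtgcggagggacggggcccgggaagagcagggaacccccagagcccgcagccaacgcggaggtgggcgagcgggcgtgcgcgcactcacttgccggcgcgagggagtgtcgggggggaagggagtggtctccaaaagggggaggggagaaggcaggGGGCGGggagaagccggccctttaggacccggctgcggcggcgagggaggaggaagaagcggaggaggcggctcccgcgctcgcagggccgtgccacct
INSR: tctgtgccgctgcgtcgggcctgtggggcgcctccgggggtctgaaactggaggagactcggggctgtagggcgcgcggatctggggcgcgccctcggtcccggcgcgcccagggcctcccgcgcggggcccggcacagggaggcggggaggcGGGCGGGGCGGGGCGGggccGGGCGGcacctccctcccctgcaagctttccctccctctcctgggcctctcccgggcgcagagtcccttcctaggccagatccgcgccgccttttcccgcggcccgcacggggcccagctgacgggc
IGFBP5: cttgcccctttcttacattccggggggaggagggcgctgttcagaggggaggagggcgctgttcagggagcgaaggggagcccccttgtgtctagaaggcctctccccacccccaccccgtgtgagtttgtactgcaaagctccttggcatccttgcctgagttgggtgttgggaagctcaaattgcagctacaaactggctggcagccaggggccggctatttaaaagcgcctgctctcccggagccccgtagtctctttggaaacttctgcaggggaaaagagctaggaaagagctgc
The IGF1R window held 2 GC boxes, that of IGFBP2 held 1, that of INSR held 4 matches (some sharing a base) and that of IGFBP5 held none, where 45.0% of 35116 promoter windows of this length held at least 1. TATAAA, on either strand, was in none of the 4 windows and in 11.5% of all windows. A match in these letters is a description and not a binding site. RefSeq windows were found for 8 of the 10 genes, without IGFBP1 and IGFBP7.

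Levels of different genes were set side by side per length, as CPM per kb of annotated exon. IGFBP5 had the highest level in both groups, 243 ± 82.5 CPM per kb in buds and 185 ± 14.9 CPM per kb in bulks (SD, n = 3 and 5). In buds the order of mean levels was IGFBP5, IGFBP3, IGF1R, IGFBP2, INSR, IGFBP1, IGFBP6, IGFBP7, IGFBP4 and IGF1. Of neighbours in that order, the ranges over buds were separate for IGFBP5 and IGFBP3, for IGFBP3 and IGF1R, for INSR and IGFBP1 and for IGFBP4 and IGF1, and overlapped for the other pairs. In bulks the order was IGFBP5, IGFBP2, IGF1R, IGFBP3, INSR, IGFBP6, IGFBP4, IGFBP1, IGFBP7 and IGF1. There the ranges were separate for IGFBP5 and IGFBP2, for IGFBP3 and INSR and for IGFBP7 and IGF1. IGFBP2 held rank 4 in buds and rank 2 in bulks, and IGFBP3 held rank 2 in buds and rank 4 in bulks.

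IGF1R, the receptor for IGF1 and IGF2 (chromosome 15, 98648539 to 98964530, GRCh38), was lower in buds. It was at 176, 146 and 171 CPM in the buds of flasks 264, 270 and 274, against 268, 222, 292, 238 and 240 CPM in the bulks of flasks 252, 261, 264, 270 and 274. Every bud lay below every bulk. The mean was 164 ± 16.1 CPM in buds and 252 ± 27.9 CPM in bulks (SD, n = 3 and 5), a log2 fold change of -0.62 ± 0.13 (SE; edgeR adjusted p = 0.00285). Within flasks 264, 270 and 274 the log2 ratio of bud to bulk was -0.73, -0.70 and -0.49. Long non-coding genes are annotated over IGF1R on both strands, so part of its count may belong to them.

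INSR, the insulin receptor gene (chromosome 19, 7112255 to 7294414, GRCh38), was at 114, 107 and 98.7 CPM in the buds of flasks 264, 270 and 274, against 89.6, 91.3, 103, 94.8 and 81.9 CPM in the bulks of flasks 252, 261, 264, 270 and 274. The groups overlapped at a single point, the bulk of flask 264, which lay above the bud of flask 274. Its log2 fold change came to 0.21 ± 0.11 (SE; edgeR adjusted p = 0.153), with a 95% interval of -0.04 to 0.46 not corrected for the number of genes. The bud was above the bulk of its own flask in all 3 flasks, by log2 ratios of 0.14, 0.17 and 0.27. The test was not passed, and the interval does not show that INSR was equal in both.

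Set against each other per length, INSR stood at 0.833, 0.943 and 0.743 of the IGF1R level in the buds of flasks 264, 270 and 274. In the bulks of flasks 252, 261, 264, 270 and 274 it stood at 0.430, 0.530, 0.456, 0.512 and 0.440 of it. IGF1R was therefore the more abundant of both receptors per length in every library, and the ratio was nearer to 1 in each bud than in any bulk. This ratio is a description of the same counts as above, with no separate test. Exon length was taken from all annotated isoforms, so the ratio would change with the isoforms in use, by the same factor in both groups unless the isoforms differed between them.

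**Figure D2:**
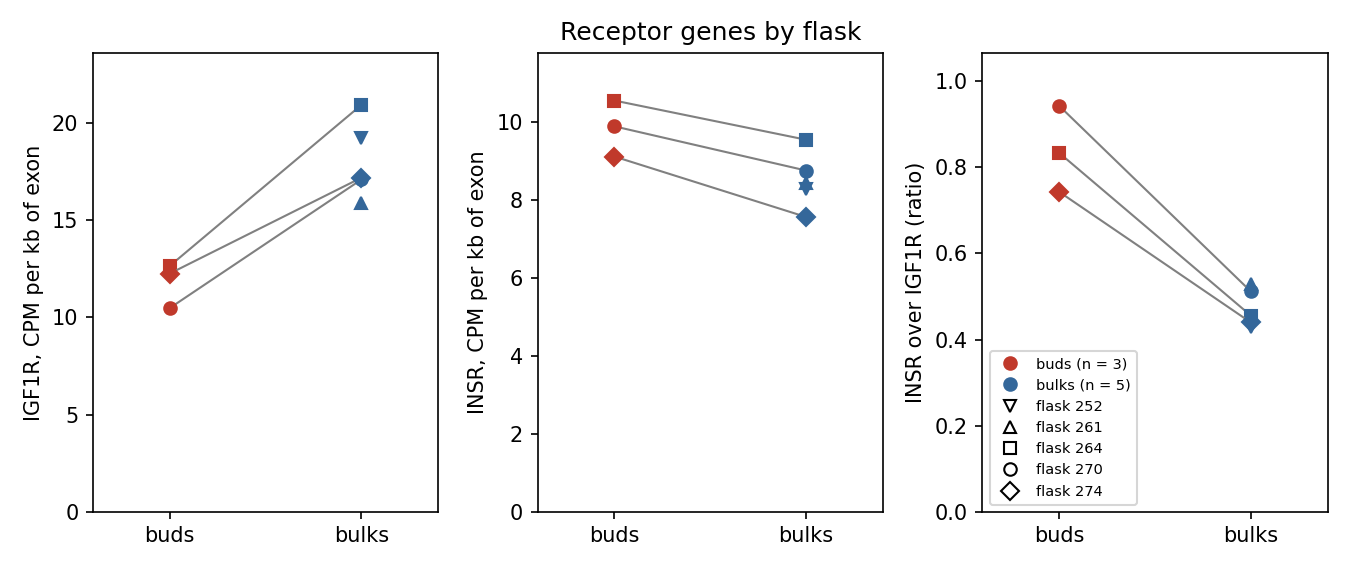
Levels of IGF1R and INSR in CPM per kb of exon, and the ratio of INSR to IGF1R, in buds (left) and bulks (right), with lines joining the samples of a flask. IGF1R was lower in the bud of each joined flask, INSR was slightly higher, and the ratio ran from 0.743 to 0.943 in buds and from 0.430 to 0.530 in bulks.

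IGFBP5, which binds IGFs in the extracellular matrix, carried most of the binding protein RNA. It was at 2176, 1384 and 1160 CPM in the buds of flasks 264, 270 and 274, against 1176, 1124, 1348, 1107 and 1213 CPM in the bulks of flasks 252, 261, 264, 270 and 274. The bud of flask 264 stood above all others, and the bud of flask 274 lay within the range of the bulks. Buds exceeded bulks by 0.40 ± 0.18 on the log2 scale (SE; edgeR adjusted p = 0.0993). With the flask 264 bud left out this was 0.09 (edgeR adjusted p = 0.617), and with the flask 274 bud left out it was 0.58 (edgeR adjusted p = 0.0269). IGFBP5 accounted for 89.1 to 89.7% of the counts of IGFBP1 to IGFBP7 in buds, against 83.9 to 88.1% in bulks. The long non-coding gene DIRC3-AS1 is annotated over IGFBP5 on the opposite strand, so part of the IGFBP5 count may belong to it.

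IGFBP2, a binding protein found in many fetal tissues, was lower in buds. It was at 46.7, 57.7 and 39.8 CPM in the buds of flasks 264, 270 and 274, against 98.2, 115, 93.3, 97.4 and 90.0 CPM in the bulks of flasks 252, 261, 264, 270 and 274. Every bud lay below every bulk, and the log2 fold change was -1.04 ± 0.15 (SE; edgeR adjusted p = 0.000249), which is 2.05-fold lower in buds. It was lower in the bud of each of the 3 flasks, by log2 ratios of -0.99, -0.75 and -1.17. IGFBP2 lies 7.67 kb from IGFBP5 on chromosome 2 (216632828 to 216664436 and 216672105 to 216695549, GRCh38), and the pair is read from opposite strands towards each other. The markers of pancreatic epithelium summed to 1215 to 1733 CPM in buds and 2693 to 3681 CPM in bulks, and those of proliferating cells to 87.5 to 116 CPM in buds and 492 to 654 CPM in bulks. Their part in the lower IGFBP2 and IGF1R was not tested.

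IGFBP3, the main carrier of IGFs in blood, was at 195, 106 and 86.7 CPM in the buds of flasks 264, 270 and 274, against 57.0, 75.8, 102, 101 and 59.1 CPM in the bulks of flasks 252, 261, 264, 270 and 274. The bud of flask 264 was the highest library, and the bud of flask 274 lay below the bulks of flasks 264 and 270. The log2 fold change was 0.71 ± 0.28 (SE; edgeR adjusted p = 0.0577), and it fell short of the threshold. It passed by DESeq2 (adjusted p = 0.0317). It also passed with the flask 274 bud, the flask 264 bulk or the flask 270 bulk left out (edgeR adjusted p = 0.0268, 0.0365 and 0.0458). With the flask 264 bud left out it was 0.29 (edgeR adjusted p = 0.374). Per length IGFBP3 was above IGFBP2 in every bud, by log2 differences of 2.12, 0.94 and 1.18 in flasks 264, 270 and 274. In bulks this difference was -0.73, -0.54, 0.18, 0.11 and -0.55 in flasks 252, 261, 264, 270 and 274, so IGFBP3 was above IGFBP2 in the bulks of flasks 264 and 270 and below it in the others.

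IGFBP4 and IGFBP6 were lower in buds, at a few CPM. IGFBP4, an inhibitor of IGF action, was at 2.43, 0.637 and 0.722 CPM in the buds of flasks 264, 270 and 274, from 18, 7 and 9 counts. In the bulks of flasks 252, 261, 264, 270 and 274 it was at 4.36, 7.44, 16.5, 4.03 and 5.44 CPM, from 33, 56, 100, 44 and 51 counts. Every bud lay below every bulk, and the bulk of flask 264 was the highest. The log2 fold change was -2.64 ± 0.63 (SE; edgeR adjusted p = 0.00536). It was -3.42 with the flask 264 bud left out and -2.16 with the flask 264 bulk left out.

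IGFBP6, which prefers IGF2 over IGF1, was at 3.51, 0.637 and 0.562 CPM in the buds of flasks 264, 270 and 274, against 3.17, 7.31, 17.0, 3.85 and 4.27 CPM in the bulks of flasks 252, 261, 264, 270 and 274. The bud of flask 264 lay above the bulk of flask 252, so the groups overlapped, and the bulk of flask 264 was again the highest. Buds had a log2 fold change of -2.26 ± 0.76 (SE; edgeR adjusted p = 0.0295), with log2 ratios within flasks 264, 270 and 274 of -2.13, -1.93 and -2.17. It was -3.51 with the flask 264 bud left out and -1.68 with the flask 264 bulk left out. It no longer passed when the bud of flask 270 or flask 274 was left out (edgeR adjusted p = 0.118 and 0.111).

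IGFBP7, a protein of vessel walls and matrix, was at 2.16, 0.455 and 3.05 CPM in the buds of flasks 264, 270 and 274, against 0.529, 1.20, 8.24, 1.28 and 2.56 CPM in the bulks of flasks 252, 261, 264, 270 and 274. The groups overlapped, and the log2 fold change of -0.49 ± 0.82 (SE; edgeR adjusted p = 0.648) changed sign to 0.41 without the bulk of flask 264. POLR2B and the antisense gene IGFBP7-AS1 overlap IGFBP7 on the opposite strand, which leaves its low counts uncertain.

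Markers of mesenchyme were mixed in the bulk of flask 264, where IGFBP4, IGFBP6 and IGFBP7 were highest. COL1A1, PDGFRB, POSTN and PRRX1 had their highest bulk value there, with PDGFRB, a receptor of mesenchymal cells, at 12.2 CPM and at no more than 2.79 CPM in any other library. The other markers of the list were higher in another bulk. COL3A1, COL1A2 and PDGFRA were at 4.94, 13.8 and 2.97 CPM in the bulk of flask 264, below their 39.2, 28.6 and 8.22 CPM in the bulk of flask 274, and LUM had no counts there. Of 12 mesenchyme markers 9 were tested, with 2 that rose and 2 that fell in buds, beside 23.4% and 23.8% of all genes tested. The list summed to 59.1 to 161 CPM in buds and 38.4 to 119 CPM in bulks. Of 8 endothelial markers, PECAM1, CDH5, TEK and EMCN were below 1 CPM in every library, and EMCN had no counts. The 8 summed to 9.19 to 11.9 CPM in buds and 2.97 to 5.45 CPM in bulks. Only 2 of them were tested, KDR, which rose in buds, and ESAM, which did not pass. Beside these, 23.4% of all genes tested were higher and 23.8% lower. The part of mesenchyme in the levels of IGFBP4, IGFBP6 and IGFBP7 was not tested.

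IGFBP1, a binding protein made by liver and repressed by insulin there, was at 9.44, 3.64 and 2.65 CPM in the buds of flasks 264, 270 and 274, against 0.925, 5.84, 0.494, 3.75 and 1.92 CPM in the bulks of flasks 252, 261, 264, 270 and 274. The bud of flask 264 was the highest and the bulk of the same flask the lowest, from 70 and 3 counts. Its log2 fold change was 0.96 ± 0.65 (SE; edgeR adjusted p = 0.246), and 0.25 with the flask 264 bud left out. Liver markers went both ways in flask 264. ALB, SERPINA1 and TTR had their highest value of all libraries in its bud, at 13.3, 229 and 1021 CPM. FGA, FGB and APOA1 had theirs in its bulk, where IGFBP1 was lowest, with 5.66, 5.80 and 13.3 CPM in the bud and 84.4, 150 and 39.5 CPM in the bulk, and AFP was at 3.10 CPM in the bud and 24.6 CPM in the bulk. Of 9 liver markers 8 were tested, with 1 higher and 3 lower in buds, beside 23.4% and 23.8% of all genes tested. The list summed to 545 to 1293 CPM in buds and 442 to 984 CPM in bulks, with AHSG below 1 CPM in every library. TTR alone was at 442 to 1021 CPM in buds and 120 to 901 CPM in bulks. The part of liver-like cells in the IGFBP1 level was not tested.

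**Figure D3:**
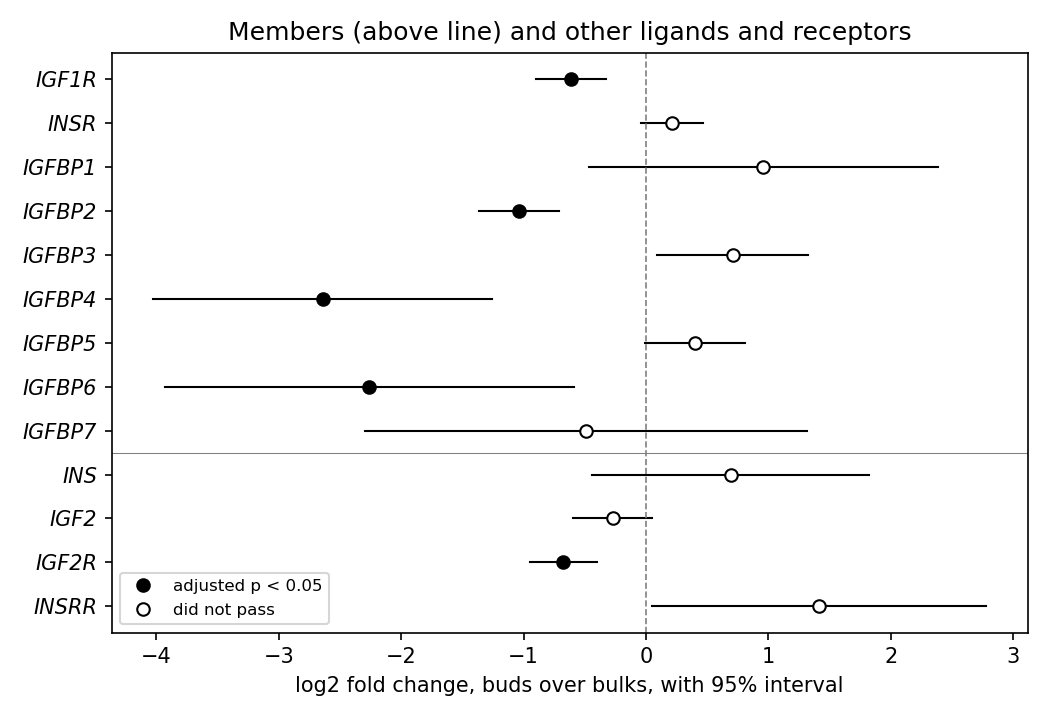
Log2 fold change of buds over bulks with its 95% interval for the 9 tested genes (above the line) and for INS, IGF2, IGF2R and INSRR (below it). Filled points passed edgeR's adjusted threshold. IGF1R, IGFBP2, IGFBP4, IGFBP6 and IGF2R lie left of 0 and no gene that passed lies right of it.

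Among ligands, IGF1 was barely detected, with 1, 0 and 2 counts in the buds of flasks 264, 270 and 274 and 5, 0, 5, 1 and 4 counts in the bulks of flasks 252, 261, 264, 270 and 274. Counts of 3 amount to 0.241 to 0.494 CPM at these depths, so a difference in IGF1 was not detectable. IGF2, the fetal growth factor, had the highest CPM of the ligands, at 2968 ± 310 CPM in buds and 3586 ± 538 CPM in bulks (SD, n = 3 and 5). Annotated exon came to 7146 bases for IGF2 and 656 bases for INS, so CPM does not rank these ligands per length. The log2 fold change of IGF2, -0.27 ± 0.15, did not pass (edgeR adjusted p = 0.152). IGF2 shares exons with the readthrough gene INS-IGF2, so its count is uncertain as a single value. INS, encoding insulin, was at 466 ± 274 CPM in buds and 288 ± 192 CPM in bulks (SD, n = 3 and 5) and did not pass either (log2 fold change 0.69 ± 0.51; edgeR adjusted p = 0.292). With the flask 264 bud left out its log2 fold change was 0.10 (edgeR adjusted p = 0.9), and the log2 ratio of bud to bulk was 2.62, -0.43 and 0.51 within flasks 264, 270 and 274.

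Of the 4 other ligand and receptor genes, IGF2R was lower in buds, beside 23.8% of all genes tested. None was higher by edgeR, DESeq2 or limma-voom, beside 23.4% of all genes tested by edgeR. At an unadjusted p below 0.05 edgeR put 1 higher, INSRR. IGF2R, the clearance receptor for IGF2, was at 347, 257 and 276 CPM in the buds of flasks 264, 270 and 274, against 455 to 484 CPM in the 5 bulks, with a log2 fold change of -0.68 ± 0.12 (SE; edgeR adjusted p = 0.0012). INSRR, a relative of INSR that binds neither insulin nor IGFs, was at 1.89, 8.82 and 6.82 CPM in the buds of flasks 264, 270 and 274, against 0.494 to 4.12 CPM in bulks. Its log2 fold change was 1.41 ± 0.62 (edgeR adjusted p = 0.0816, and 0.0354 with flask as a block).

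Of genes whose products cut, guard or partner the binding proteins, all 10 listed were tested. Of these, 4 were higher and 1 lower in buds, beside 23.4% higher and 23.8% lower of all genes tested. The median log2 fold change was 0.50. PAPPA2, a pappalysin that cuts IGFBP3 and IGFBP5, was at 148, 158 and 167 CPM in the buds of flasks 264, 270 and 274, against 7.14, 6.38, 3.95, 16.7 and 16.1 CPM in the bulks of flasks 252, 261, 264, 270 and 274. Every bud was above every bulk, by a log2 fold change of 3.93 ± 0.37 (SE; edgeR adjusted p = 2.74e-05), or 15.2-fold. Its relative PAPPA, which cuts IGFBP4, was at 2.62 ± 0.360 CPM in buds and 2.43 ± 0.586 CPM in bulks (SD, n = 3 and 5), with a log2 fold change of 0.09 and a 95% interval of -0.56 to 0.73.

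HTRA1, a secreted serine protease that can cut IGFBP5, was at 70.8, 28.8 and 25.5 CPM in the buds of flasks 264, 270 and 274, against 7.80, 6.77, 7.25, 10.7 and 8.43 CPM in the bulks of flasks 252, 261, 264, 270 and 274. The bud of flask 264 was the highest, and all buds were above all bulks. Its log2 fold change was 2.33 ± 0.32 (SE; edgeR adjusted p = 0.00019), and 1.72 with the flask 264 bud left out. STC2, a stanniocalcin that inhibits the pappalysins, was at 83.2, 93.6 and 77.9 CPM in the buds of flasks 264, 270 and 274, against 22.7 to 42.3 CPM in the 5 bulks, or 1.37 ± 0.19 on the log2 scale (edgeR adjusted p = 0.000198). Its relative STC1 was at 7.96 to 17.3 CPM in buds and 2.79 to 12.0 CPM in bulks, and it did not pass (log2 fold change 0.92 ± 0.43; edgeR adjusted p = 0.102).

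IGFALS, the acid-labile subunit that joins IGFBP3 or IGFBP5 and an IGF in a ternary complex, was at 2.93 ± 0.639 CPM in buds and 1.07 ± 0.463 CPM in bulks (SD, n = 3 and 5), or 1.45 ± 0.37 on the log2 scale (edgeR adjusted p = 0.00821). Its counts were low, at most 30 in any library, with 87 in all buds together and 43 in all bulks. TMEM219, a membrane receptor for IGFBP3, had -0.38 ± 0.13 (edgeR adjusted p = 0.033), and the call was lost with flask as a block (edgeR adjusted p = 0.074). STC2 and TMEM219 were named after their values were seen. Neuron markers summed to 3585 to 5349 CPM in buds and 761 to 1295 CPM in bulks. Endocrine markers summed to 12179 to 23291 CPM in buds and 2187 to 8768 CPM in bulks. Both sums were higher in buds, as were PAPPA2, HTRA1, STC2 and IGFALS, while TMEM219 was lower. The part of these markers in the levels of those genes was not tested.

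**Figure D4:**
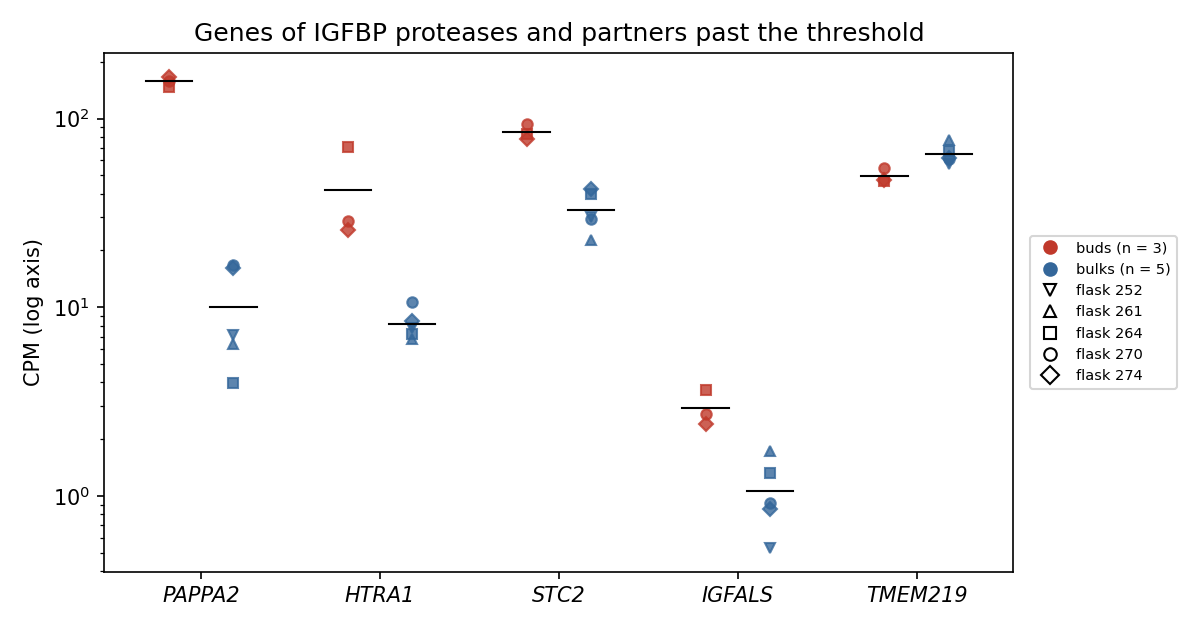
Level in CPM on a log axis of the 5 genes of binding protein partners and proteases that passed the threshold, in buds (red, left) and bulks (blue, right), with a marker shape for each flask and a bar at the mean. PAPPA2 ran from 148 to 167 CPM in buds and from 3.95 to 16.7 CPM in bulks, and TMEM219 is the 1 gene lower in buds.

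At the receptor itself, adapters and regulators went both ways. Of 13 listed genes 12 were tested, IRS4 being too low. Of these, 5 were higher and 2 lower in buds, beside 23.4% higher and 23.8% lower of all genes tested. The median log2 fold change was 0.29. With flask as a block 3 were higher. With the bud of flask 274 left out 2 were higher, with the bulk of flask 252 left out 3 were higher, and 4 and 1 were lower with the bud of flask 264 and of flask 270 left out. PTPRF, a receptor phosphatase that can act on INSR, was at 547 ± 108 CPM in buds and 1297 ± 225 CPM in bulks (SD, n = 3 and 5), or -1.25 ± 0.18 on the log2 scale (edgeR adjusted p = 0.000304). GRB14, an adapter that inhibits the INSR kinase, had -1.15 ± 0.31 (edgeR adjusted p = 0.0108), and did not pass with the flask 270 bud left out (edgeR adjusted p = 0.0597). ENPP1, an inhibitor of INSR at the membrane, had 1.05 ± 0.39 (edgeR adjusted p = 0.046, and 0.219 with flask as a block).

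The other genes that rose in this list, named after their values were seen, were IRS2, FURIN, GRB2 and GRB10. IRS2, a docking protein below both receptors, was at 67.3, 57.1 and 72.9 CPM in the buds of flasks 264, 270 and 274, against 33.7, 35.1, 51.2, 38.8 and 37.0 CPM in the bulks of flasks 252, 261, 264, 270 and 274, that is 0.75 ± 0.16 on the log2 scale (SE; edgeR adjusted p = 0.00256). Every bud was above every bulk. Its relative IRS1 had -0.37 ± 0.29 (edgeR adjusted p = 0.316). FURIN, the convertase that cuts the receptor precursors, was at 72.2 ± 23.6 CPM in buds and 37.9 ± 7.38 CPM in bulks (SD, n = 3 and 5), or 0.93 ± 0.21 on the log2 scale (edgeR adjusted p = 0.00454). The imprinted adapter gene GRB10 had 0.33 ± 0.12 (edgeR adjusted p = 0.0385, and 0.116 with flask as a block).

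Below the receptors, of 25 tested genes of PI3K, AKT, mTOR and FOXO 8 were higher and 3 lower in buds. Of all genes tested 23.4% were higher and 23.8% lower, or 47.2% in either direction. The median log2 fold change of the 25 was 0.14. With the flask 264 bud left out, 5 were higher. PIK3R1, the main regulatory subunit of PI3K, was at 108, 67.2 and 68.6 CPM in the buds of flasks 264, 270 and 274, against 195 to 313 CPM in the 5 bulks, a log2 fold change of -1.75 ± 0.21 (SE; edgeR adjusted p = 9.5e-05). AKT1 and AKT2 had -0.41 ± 0.17 and -0.15 ± 0.12 and did not pass (edgeR adjusted p = 0.0759 and 0.324).

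INPPL1, a lipid phosphatase that acts on the product of PI3K, had a log2 fold change of -1.05 ± 0.19 (SE; edgeR adjusted p = 0.00116), and was named after its values were seen. GSK3B, a kinase held in check by AKT, had 0.79 ± 0.15 (edgeR adjusted p = 0.00136). Of the FOXO factors, FOXO6 had 1.33 ± 0.44 (edgeR adjusted p = 0.0279), FOXO1 0.86 ± 0.26 (0.0191) and FOXO3 0.44 ± 0.16 (0.0432). With flask as a block none of these passed (edgeR adjusted p = 0.0776, 0.162 and 0.0813). FOXO4 had 0.14 ± 0.19 (edgeR adjusted p = 0.578). FOXO6 was at 11.9 to 14.0 CPM in buds, against 12.0 CPM in the bulk of flask 264 and 2.25 to 4.91 CPM in the other bulks. Its call was lost on leaving out any 1 of the other libraries (edgeR adjusted p from 0.0502 to 0.0824), and with the flask 264 bulk left out the log2 fold change was 1.87 (edgeR adjusted p = 0.0002).

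**Figure D5:**
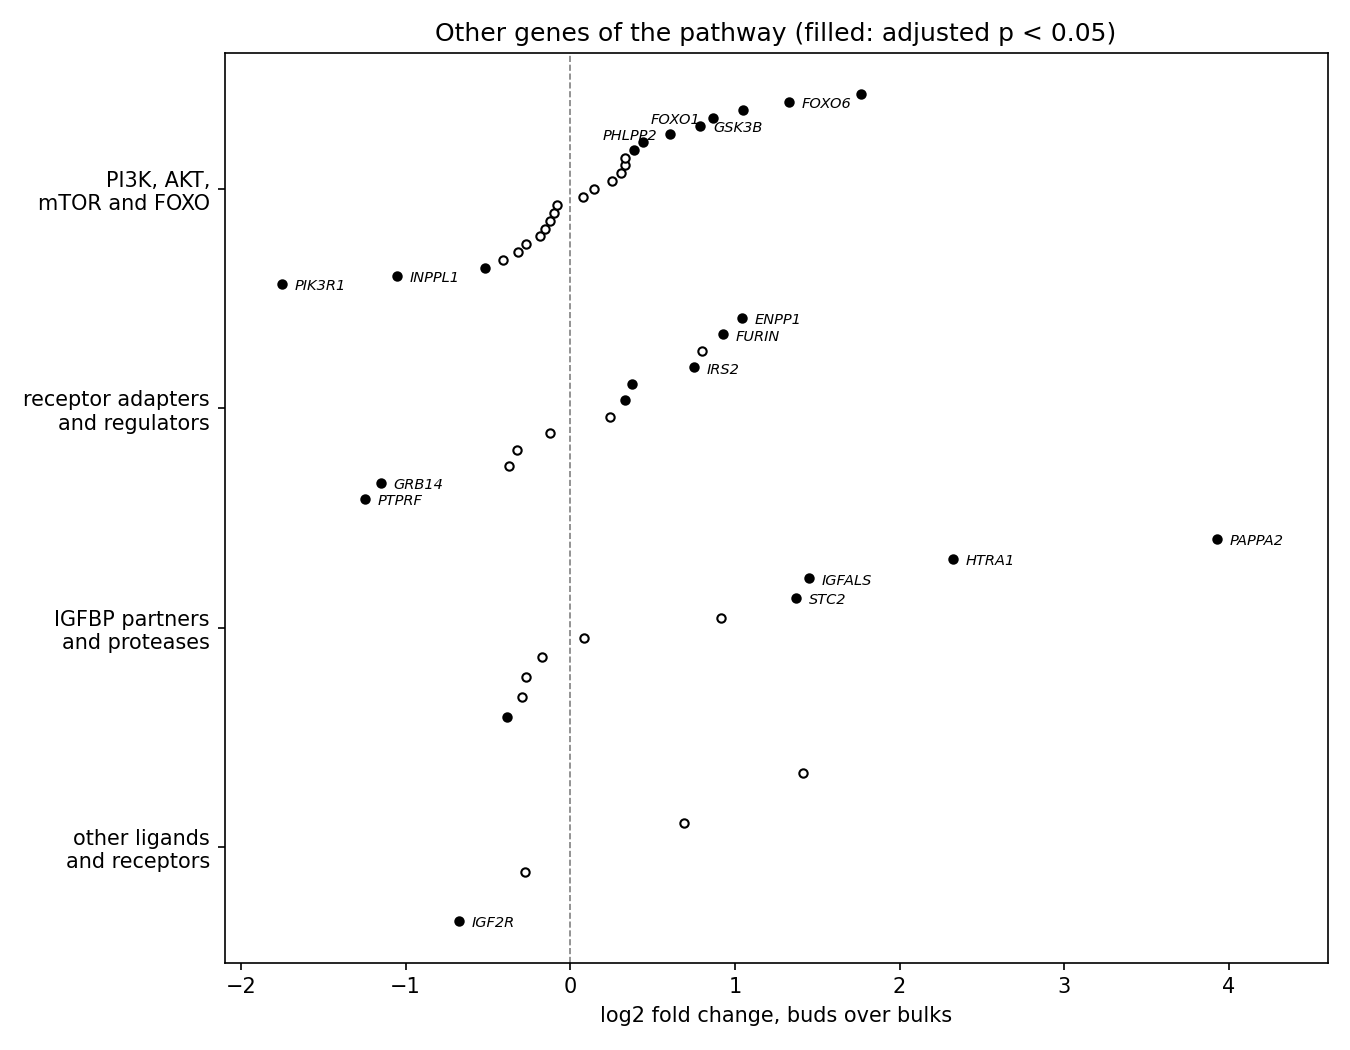
Log2 fold change of buds over bulks for the tested genes of the 4 other pathway lists, sorted within each list, with filled points for genes past the adjusted threshold and names for some of the filled points. PAPPA2 lies farthest right at 3.93 and PIK3R1 farthest left at -1.75.

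The genes whose pattern over the 8 libraries was most like that of IGF1R, INSR, IGFBP5 and IGFBP3 were sought among 11947 other protein-coding genes with a mean of at least 5 CPM. Likeness was the root-mean-square difference of log2(CPM + 0.5), each gene centred on its own mean. For IGF1R these were GNL2 (0.063), CREBBP (0.064) and ASAP2 (0.077), and for INSR they were RAPGEF1 (0.030), TBC1D10B (0.045) and CUL7 (0.049). For IGFBP5 they were FARP2 (0.123), MAFF (0.141) and GPRC5C (0.143). For IGFBP3 they were PPL (0.199), TLR5 (0.200) and GSTM2 (0.210).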

How the data were processed

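RNA-seq was measured in 8 libraries, 3 of buds and 5 of bulks, grouped by the source label of each sample. The deposited values are expected counts per Ensembl gene, made by the authors with RSEM and STAR on GRCh38, per the submitters' processing notes and the series design text, and 11.5% of values were not whole. Not given in the sources used here: tool versions, annotation release, use of strand. Symbols, positions and exon lengths came from GENCODE release 44 on GRCh38, which matched 57392 of 58233 identifiers (98.6%), and promoters from RefSeq.

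Expected counts were rounded and fitted over all genes with edgeR 4.0.16 in R 4.3.3 (TMM factors, filterByExpr by group with minimum count 10 and minimum total 15, quasi-likelihood F test, Benjamini-Hochberg adjustment over all genes, threshold 0.05, no covariate). CPM uses TMM-scaled library sizes. Counting error and floors of 3 counts do not cover variation between flasks. The labels put a bud and a bulk sample in each of flasks 264, 270 and 274, and same-flask deviations from group means correlated at 0.127 to 0.327 over genes, against -0.274 to 0.222 for pairs from different flasks, so flask was tried as a block. Alternatives also used DESeq2 1.42.0, limma 3.58.1, other scalings and filters, and left out each library. No 2 libraries of a group matched within sampling noise (lowest chi-square per gene 9.22). The test was tried on simulated counts.

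The members and gene lists were chosen with earlier results of these data known. The naming rule took all 10 members, INS, IGF2, the 3 largest changes past the threshold in each pathway list, and the 3 genes nearest in pattern to IGF1R, INSR and the 2 IGFBP genes with the highest mean CPM over all 8 libraries, IGFBP5 and IGFBP3 (in bulks alone IGFBP2 was above IGFBP3). Every other gene named was chosen after its values were seen. Some genes of the lists enter the counts and are not reported here by name.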

Additional observations from a re-analysis of the deposited data

Results flagged for a closer look

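Of 37 genes examined over the 5 bulks, 3 had a highest library that was set off from the next by more than 0.71 of the whole range. By chance this is met in about 1 of every 20 such groups. All 3 were high in the bulk of flask 264. IGFBP4 was at 16.5 CPM there and at most 7.44 CPM in the other bulks. IGFBP7 was at 8.24 CPM there and at most 2.56 CPM in the other bulks. FOXO6 was at 12.0 CPM there and at most 4.91 CPM in the other bulks. In that bulk the summed markers of pancreatic epithelium were the highest of the bulks, at 3681 CPM against at most 3065 CPM, and those of endocrine cells the lowest, at 2187 CPM. The summed mesenchyme markers were at 119 CPM there and at most 109 CPM in the other bulks, with 53.2 CPM from POSTN, while COL3A1, COL1A2 and PDGFRA were below their values in other bulks. The part of these markers in the 3 values was not tested.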

How the results depend on the processing

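Library depth limits IGF1, IGFBP1, IGFBP4, IGFBP6 and IGFBP7, which had at most 103 counts in any library. It also limits IGFALS, PAPPA and INSRR, which had at most 30, 35 and 97 counts. IGF1R, IGFBP2 and IGFBP4 stayed lower and past the threshold under all 18 alternatives, and with flask as a replicate block 4 members were lower and 0 higher. The count of members higher, 0, became 1 with no expression filter, with DESeq2 and with flask as a random effect, and 0 to 2 without 1 library. The count of members lower ran from 3 to 4 without 1 library. Of the other ligands and receptors, 1 was higher with no filter, with the replicate block and with the random effect, and 0 to 1 without 1 library. Of partners and proteases, 0 were lower with unscaled totals, no filter, the block and the 3 flasks with both samples, and 0 to 1 without 1 library. Of adapters, 3 were higher with upper-quartile factors, no filter or the block, 2 with the 3 flasks, and 2 to 5 without 1 library, where 1 to 4 were lower. Of PI3K to FOXO genes, 5 were higher with the 3 flasks with both samples, and 5 to 8 without 1 library. IGFBP7 changed sign to 0.02 without the bud of flask 270 and to 0.41 without the bulk of flask 264, over a range of -1.09 to 0.41 without 1 library. The cause of these shifts was not tested. With the block PHLPP1 also lost its call (edgeR adjusted p = 0.0529), and no call changed other than this and those given beside the results. Over all genes, 3237 were higher and 3384 lower with the block.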
